A study of Mus musculus with 18 samples.

Results

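The genes described here are 10 epithelial genes measured in immortalised mouse embryonic fibroblasts: the keratins Krt8, Krt18, Krt19, Krt14 and Krt17, the claudins Cldn1 and Cldn4, the transcription factor Trp63, the cornified envelope gene Sprr1a and the kinase Ripk4. They are 10 of the 24318 genes in the deposited tables and were matched by symbol. They were selected on these same measurements, because earlier results of these libraries showed them higher with the proteasome inhibitor MG132 or lower in cells carrying T-N1G. Their levels and differences are therefore given as a description without a test, and tests are reported for other genes. All cells, controls included, were MafF-/-::MafG-/-::MafK-/- and thus without the small Maf transcription factors. T-N1G cells expressed in addition a tethered Nrf1-MafG heterodimer, in which the transcription factor Nrf1 (gene Nfe2l1) is joined to MafG, and mock cells did not. Each line was kept in DMEM with 10% fetal bovine serum and was treated for 12 h with vehicle, 0.3 µM MG132 or 1.0 µM MG132, with 3 polyadenylated RNA libraries in each of the 6 groups. How T-N1G is driven, whether each line is 1 clone and whether replicates were grown apart is not stated by the labels. Any p-value therefore measures the spread of these libraries alone, which could be technical.

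Keratins are the intermediate filament proteins of epithelia and form filaments only as pairs of a type I and a type II protein. Krt8 (type II) pairs with Krt18 or Krt19 (type I) in simple epithelia, Krt14 is the type I keratin of basal keratinocytes, and Krt17 is a type I keratin of hair follicles and of wounded or stressed epidermis. Claudins are the membrane proteins that seal tight junctions. Trp63 encodes p63, the transcription factor that maintains stratified epithelia, Ripk4 is a kinase needed for keratinocyte differentiation, and Sprr1a is a small proline-rich protein that is crosslinked into the cornified envelope. Fibroblasts, in contrast, carry vimentin as their main intermediate filament. MG132 blocks the proteasome, and Nrf1 is the factor that raises proteasome genes when the proteasome is inhibited.

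Libraries held 18164380 to 21293709 fragments. The transgene was visible in the labelled line: the summed fragments of Mafg, including those of the fusion, were 10324 in the 3 T-N1G vehicle libraries and 23 in the 3 mock vehicle libraries. They were 49457 at 0.3 µM and 170874 at 1.0 µM in T-N1G cells, and 34 and 63 in mock cells. In T-N1G cells the MG132 dose and the Mafg level thus rose together, and their parts in any T-N1G response or line difference under MG132 cannot be told apart. Fibroblast markers dominated every group, with summed levels of the 10 markers of 8529 to 13410 CPM (counts scaled to library size by TMM, as all CPM here). Of 8 markers of keratinocytes and other epithelium, Cdh3 alone made up most of the sum, and without Cdh3 the summed level was 9.64 to 12.7 CPM in T-N1G cells and 5.6 to 8.25 CPM in mock cells at 1.0 µM, against 1.66 to 2.53 CPM in T-N1G cells and 0.639 to 0.875 CPM in mock cells under vehicle. Of the other 7, the summed fragments of 3 libraries at 1.0 µM were low for Dsg3, Epcam, Krt5 and Esrp1, at 5, 13, 14 and 21 in T-N1G cells and 1, 15, 2 and 10 in mock cells, and higher for Grhl2, Cdh1 and Col17a1, at 388, 70 and 61 in T-N1G cells and 278, 49 and 23 in mock cells. Under vehicle, Dsg3, Epcam, Krt5 and Esrp1 had 0, 0, 11 and 1 in T-N1G cells and 0, 2, 6 and 1 in mock cells, and Grhl2, Cdh1 and Col17a1 had 3, 96 and 17 in T-N1G cells and 2, 37 and 1 in mock cells. Summed markers of leukocytes were 5.64 to 9.48 CPM in T-N1G and 4.37 to 4.49 CPM in mock cells at 1.0 µM, against 1.71 to 2.35 CPM in T-N1G and 2.37 to 2.82 CPM in mock cells under vehicle. Of these 5 markers 3 were tested and all 3 rose at 1.0 µM in both lines, as did 37.5% of all genes tested in T-N1G and 32.4% in mock cells. With other settings or 1 library left out, the mock call of Csf1r was lost in 9 refits. The call of Cd68 was lost in 2 refits in mock and 4 in T-N1G cells. Summed markers of endothelium were 25.1 to 38.6 CPM in T-N1G and 63.3 to 87.0 CPM in mock cells at 1.0 µM, against 4.97 to 6.72 CPM in T-N1G and 5.98 to 6.72 CPM in mock cells under vehicle, led by Kdr. Their part in the results was not tested. In bulk RNA, a few cells with many transcripts and many cells with few cannot be told apart. Libraries at 1.0 µM differed more among themselves than others, with a median SD of log2 CPM over genes of 0.186 in T-N1G and 0.157 in mock cells, against 0.0692 in T-N1G and 0.0549 in mock cells under vehicle.

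In T-N1G cells, 1.0 µM MG132 left Krt8, Krt18, Krt17 and Cldn4 higher than under vehicle and Krt19, Cldn1, Trp63 and Ripk4 lower. In mock cells, Krt8, Krt18, Krt17, Cldn4 and Sprr1a were near absent or low under vehicle and higher at 1.0 µM, by 14.4-fold for Sprr1a, while Krt19, Krt14 and Ripk4 were moderately higher. Counted by libraries that did not overlap with vehicle at 1.0 µM, in T-N1G cells 4 of the 10 lay above and 4 below, whereas in mock cells 8 lay above. Cldn1 and Trp63 did not lie above vehicle without overlap in either line. Over all 13258 genes tested, 36.5% in T-N1G and 33.3% in mock cells were higher without overlap at 1.0 µM, and 38.9% in T-N1G and 39.2% in mock cells lower. At 0.3 µM, 3 of the 10 were higher and 3 lower without overlap in T-N1G cells (34.5% and 36.3% of all genes tested), and 8 were higher and 1 lower in mock cells (35.2% and 37.7%). Since these contrasts chose the genes, nothing is read from their counts.

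**Figure D1:**
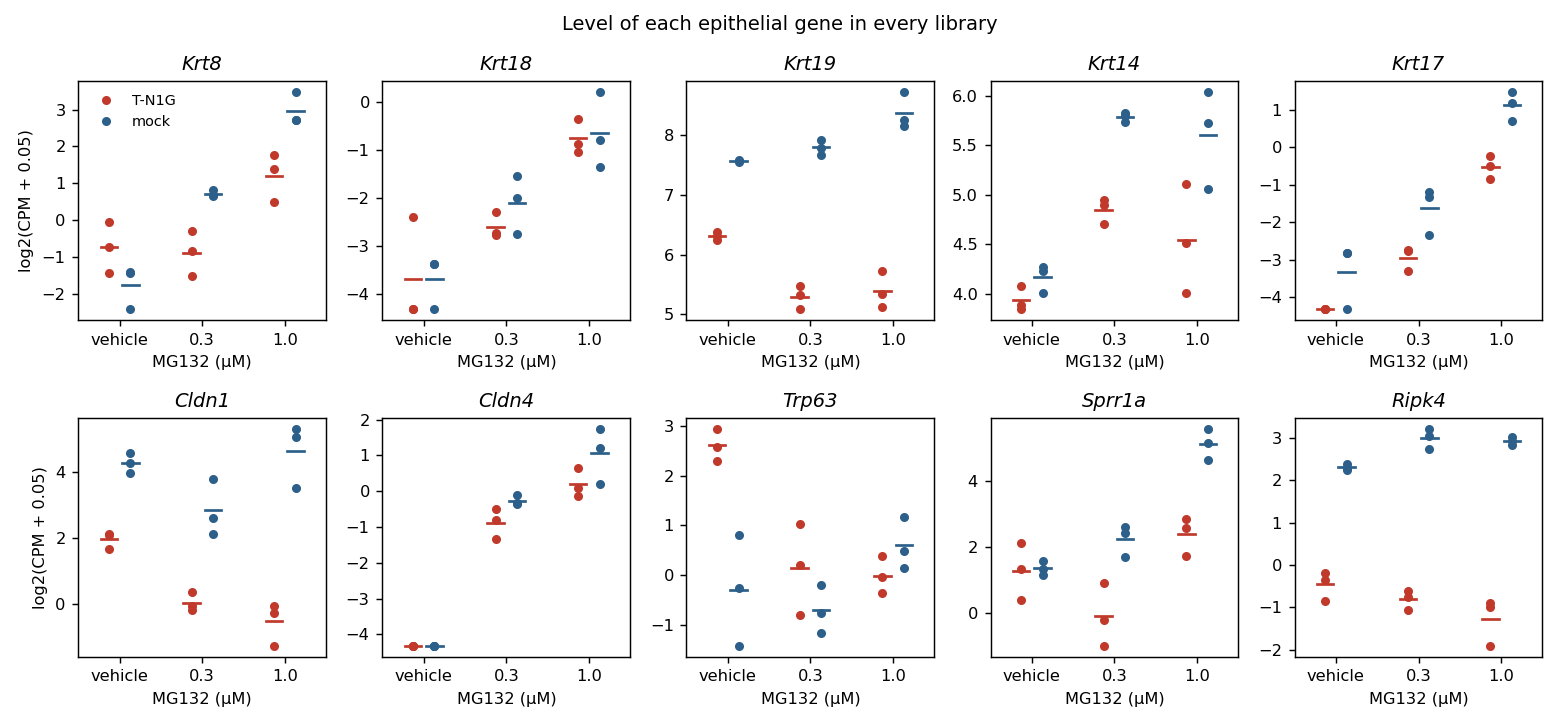
Level of each of the 10 genes in every library, as log2(CPM + 0.05), against the MG132 dose in µM. Points are single libraries, bars are means of the 3 plotted values, and T-N1G cells stand left of mock cells at each dose. Krt19, Cldn1 and Ripk4 separate the lines at every dose (Ripk4 at 0.217 to 0.491 CPM in T-N1G and 7.1 to 8.0 CPM in mock cells at 1.0 µM), and Trp63 is highest in T-N1G cells under vehicle at 4.88 to 7.65 CPM.

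Cldn4, at 0 in every vehicle library, and Sprr1a carry repeats of the AP-1 motif close to their start sites, and their promoters are shown for that reason. The windows run from 250 bases before to 50 bases after the start and come from RefSeq on build GRCm38.p6, Sprr1a at chr3:92485832-92486131 and Cldn4 at chr5:134946885-134947184, both on the minus strand and written 5′ to 3′. Capitals mark the AP-1 motif TGANTCA in both, and in Sprr1a also the antioxidant response element core, which shares bases with the first AP-1 match, and TATAAA.
Sprr1a: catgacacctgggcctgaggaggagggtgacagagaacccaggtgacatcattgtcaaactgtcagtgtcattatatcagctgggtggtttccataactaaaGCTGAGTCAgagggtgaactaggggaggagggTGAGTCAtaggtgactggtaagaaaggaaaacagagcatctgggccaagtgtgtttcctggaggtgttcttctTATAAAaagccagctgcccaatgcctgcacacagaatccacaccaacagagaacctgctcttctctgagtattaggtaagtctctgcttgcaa
Cldn4: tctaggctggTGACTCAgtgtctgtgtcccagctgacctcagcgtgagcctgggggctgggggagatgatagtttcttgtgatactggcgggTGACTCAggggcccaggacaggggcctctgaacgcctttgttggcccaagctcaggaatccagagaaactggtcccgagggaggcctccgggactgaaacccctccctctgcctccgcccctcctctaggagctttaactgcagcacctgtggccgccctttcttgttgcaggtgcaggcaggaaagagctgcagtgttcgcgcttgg

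Promoter windows were matched for 6 of the 10 genes, Krt8, Krt18, Krt14, Cldn1, Cldn4 and Sprr1a, and those of Krt19, Krt17, Trp63 and Ripk4 were not used here. Both strands were searched, and positions are counted from the start site. TGANTCA was found at -240 and -158 in Cldn4 and at -146 and -116 in Sprr1a, and in none of the other 4 windows; 7.81% of 32851 windows of the same length held it. The core TGACNNNGC, to which CNC and small Maf heterodimers bind, was found at -148 in Sprr1a on the minus strand and in 12.4% of all windows. TATAAA was found at -43 in Sprr1a and at -1 in Krt8, and in 13.6% of all windows. The cyclic AMP element TGACGTCA (1.79% of all windows), the C/EBP-ATF motif TTGCATCA (0.895%), the heat shock element (0.603%) and the grainyhead motif AACCGGTT (0.146%) were in none of the 6. A match describes letters in these windows and does not show binding.

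Among the keratins, Krt8 was barely detected under vehicle. In T-N1G cells it had 12, 7 and 20 fragments under vehicle, 6, 10 and 16 at 0.3 µM and 22, 59 and 47 at 1.0 µM. In mock cells it had 7, 7 and 3 fragments under vehicle, 31, 31 and 35 at 0.3 µM and 116, 124 and 232 at 1.0 µM. Mock cells were thus above vehicle at both doses without overlap, and T-N1G cells only at 1.0 µM. At 1.0 µM the level was 2.41 ± 0.995 CPM in T-N1G and 8.07 ± 2.65 CPM in mock cells (SD, n = 3 each), 4.01-fold above vehicle in T-N1G and 30.3-fold in mock cells. At 0.3 µM the fold over vehicle was 0.876 in T-N1G and 5.97 in mock cells, and the T-N1G value changed sign without T-N1G vehicle library 3 (log2 0.27) or without T-N1G 0.3 µM library 1 (log2 0.09).

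Krt18, the type I partner of Krt8, lies next to it on chromosome 15 (Krt8 at chr15:101827141-101834773 and Krt18 at chr15:101858646-101862457, mm9, as in the deposited position table). It had 0, 3 and 0 fragments in T-N1G cells under vehicle, 2, 3 and 2 at 0.3 µM and 8, 13 and 8 at 1.0 µM. In mock cells it had 1, 1 and 0 fragments under vehicle, 4, 2 and 6 at 0.3 µM and 6, 10 and 23 at 1.0 µM. All libraries at 1.0 µM were above all vehicle libraries of their line, with a ratio to vehicle of 12.0 in T-N1G (95% exact counting interval 3.71 to 61.5) and 22.1 in mock cells (5.72 to 189). In mock cells the fitted log2 difference was 3.58 without library 3 at 1.0 µM and 4.2 with it, and in T-N1G cells the ratio rests on the 3 fragments of vehicle library 2. The lines overlapped at 1.0 µM, at 0.553 ± 0.159 CPM in T-N1G and 0.657 ± 0.398 CPM in mock cells. Per length, Krt8 stayed above its partner: at 1.0 µM, Krt8 had 1.47 ± 0.612 FPKM (a level scaled to gene length and depth by the authors) and Krt18 0.453 ± 0.132 FPKM in T-N1G cells, and in mock cells Krt8 had 5.03 ± 1.67 and Krt18 0.549 ± 0.334 FPKM.

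Krt19, the smallest type I keratin of simple epithelia, was by far the most abundant of the 10 and lay on opposite sides of vehicle in the lines. T-N1G cells had 75.9, 82.7 and 78.9 CPM under vehicle, 33.9, 39.9 and 44.3 CPM at 0.3 µM and 40.3, 53 and 34.6 CPM at 1.0 µM. Mock cells had 190.0, 192 and 188 CPM under vehicle, 221, 204 and 241 CPM at 0.3 µM and 303, 422 and 284 CPM at 1.0 µM. Every treated T-N1G library was below every T-N1G vehicle library, and every treated mock library was above every mock vehicle library. The fold over vehicle at 1.0 µM was 0.538 in T-N1G and 1.77 in mock cells. T-N1G cells were 2.4-fold below mock cells under vehicle, 5.64-fold at 0.3 µM and 7.88-fold at 1.0 µM, and the lines never overlapped.

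Krt14 was higher with MG132 in both lines at 0.3 µM. T-N1G cells had 16.8, 14.3 and 14.7 CPM under vehicle, 29.8, 30.9 and 26.0 CPM at 0.3 µM and 34.4, 22.8 and 16.0 CPM at 1.0 µM. Mock cells had 18.7, 19.3 and 16.0 CPM under vehicle, 55.5, 53.3 and 56.9 CPM at 0.3 µM and 65.8, 53 and 33.2 CPM at 1.0 µM. The higher dose spread the libraries apart without raising the mean, and the lowest T-N1G library at 1.0 µM lay within the T-N1G vehicle range. At 0.3 µM the fold over vehicle was 1.89 in T-N1G and 3.07 in mock cells. The lines overlapped under vehicle and at 1.0 µM and were apart only at 0.3 µM, where T-N1G cells were 1.91-fold lower. At 1.0 µM the T-N1G library was the lower one in each of the 3 pairs of libraries with the same number, with a fitted difference of 2.08-fold.

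Krt17 was near 0 under vehicle. T-N1G cells had 0, 0 and 0 fragments under vehicle, 2, 1 and 2 at 0.3 µM and 13, 9 and 12 at 1.0 µM. Mock cells had 0, 2 and 2 fragments under vehicle, 7, 3 and 8 at 0.3 µM and 39, 30 and 57 at 1.0 µM. Against vehicle, 1.0 µM was at least 14-fold higher in T-N1G cells (with a floor of 3 fragments over the vehicle group) and 32.3-fold higher in mock cells, a fitted value that rests on 4 vehicle fragments. At 1.0 µM the T-N1G libraries were all below the mock libraries, at 0.652 ± 0.145 CPM in T-N1G and 2.17 ± 0.576 CPM in mock cells, a 3.33-fold lower level. Krt19 (chr11:100002125-100007233), Krt14 (chr11:100064475-100068824) and Krt17 (chr11:100117530-100122303, mm9) lie in the type I keratin cluster, whose genes are close paralogs, and the treatment of reads shared between paralogs is not stated.

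Summed over all type I keratin genes, FPKM separated the lines under vehicle while type II did not. Type I totals in T-N1G cells were 76.6 ± 2.25 FPKM under vehicle, 54.0 ± 3.12 FPKM at 0.3 µM and 64.0 ± 11 FPKM at 1.0 µM, and in mock cells 168 ± 2.0, 226 ± 17.5 and 341 ± 62.6 FPKM at these doses (SD, n = 3 each). Type II totals in T-N1G cells were 28.3 ± 1.99 FPKM under vehicle, 16.1 ± 1.82 FPKM at 0.3 µM and 15.3 ± 2.32 FPKM at 1.0 µM, and in mock cells 28.3 ± 1.68, 27.5 ± 5.4 and 45.4 ± 10.1 FPKM. Both totals were thus lower with MG132 than under vehicle in T-N1G means, while in mock cells they were highest at 1.0 µM. The ratio of type I to type II was 4.3 ± 1.27 in T-N1G and 7.78 ± 2.23 in mock cells at 1.0 µM, and 2.71 ± 0.125 in T-N1G and 5.96 ± 0.402 in mock cells under vehicle. Krt19 supplied most of type I, but its share was 56.0 ± 7.96% in T-N1G and 83.9 ± 4.08% in mock cells at 1.0 µM, compared with 84.1 ± 1.25% in T-N1G and 91.8 ± 0.551% in mock cells under vehicle. Type II was almost wholly Krt80, a broadly expressed keratin, at 96.2 ± 1.29% in T-N1G and 98.2 ± 0.611% in mock cells under vehicle. Krt8 made up 9.52 ± 3.74% of type II in T-N1G and 11.1 ± 2.25% in mock cells at 1.0 µM.

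**Figure D2:**
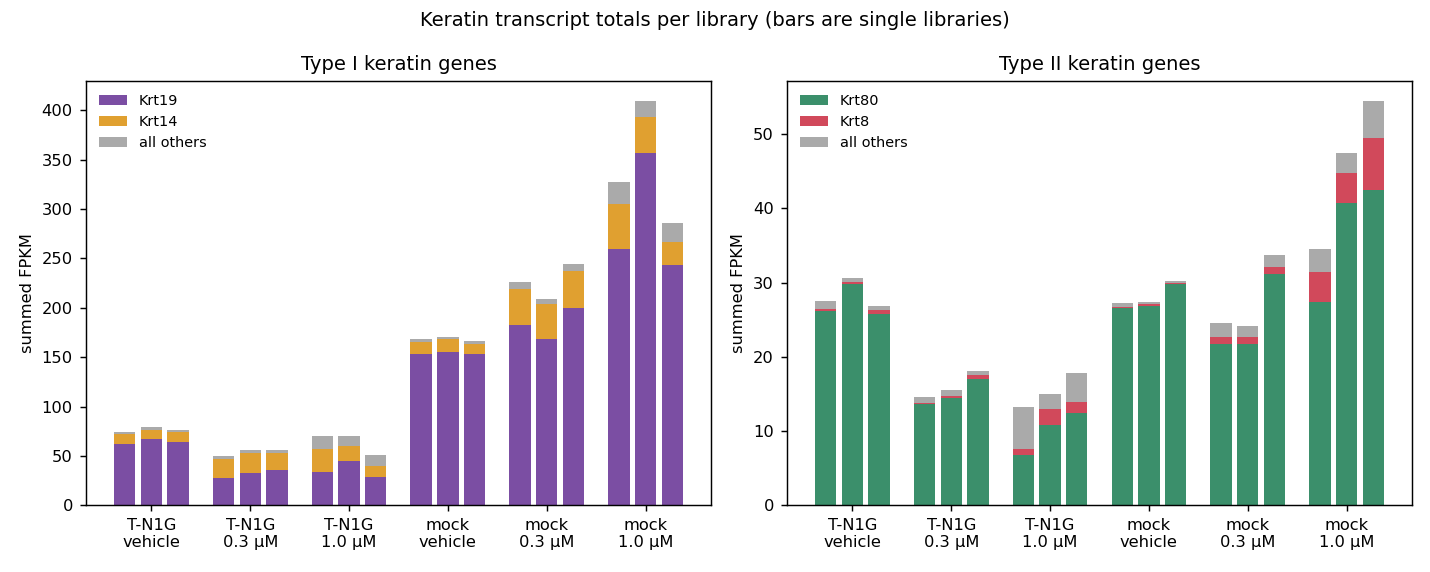
Summed FPKM of all type I (left) and type II (right) keratin genes, 1 bar per library, with T-N1G groups left of mock groups and doses from vehicle to 1.0 µM MG132. Colours show Krt19 and Krt14, or Krt80 and Krt8, within the sum. Type I totals average 64.0 FPKM in T-N1G and 341 FPKM in mock cells at 1.0 µM, and the Krt8 segment is visible chiefly at 1.0 µM.

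The claudins behaved unlike each other. Cldn4, a claudin of simple epithelia that tightens junctions against sodium, had 0 fragments in all 6 vehicle libraries of both lines (chr5:135420992-135422804, mm9). In T-N1G cells it had 7, 13 and 11 fragments at 0.3 µM and 14, 18 and 28 at 1.0 µM. In mock cells it had 15, 18 and 15 fragments at 0.3 µM and 40, 21 and 69 at 1.0 µM. All treated libraries of both lines therefore held it and no vehicle library did, with a level at 1.0 µM at least 24.8-fold above vehicle in T-N1G and at least 49.1-fold above it in mock cells. The lines were apart at 0.3 µM, where T-N1G cells were 1.54-fold lower, and overlapped at 1.0 µM, at 1.13 ± 0.344 CPM in T-N1G and 2.22 ± 1.1 CPM in mock cells. At 1.0 µM the T-N1G library was the lower one in every pair of libraries with the same number, with a fitted difference of 1.96-fold.

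Cldn1, the claudin of the epidermal barrier, was detected under vehicle in both lines. T-N1G cells had 3.15, 4.28 and 4.33 CPM under vehicle, 0.842, 0.911 and 1.24 CPM at 0.3 µM and 0.368, 0.789 and 0.921 CPM at 1.0 µM. Mock cells had 15.7, 19.3 and 24.1 CPM under vehicle, 4.32, 6.07 and 13.8 CPM at 0.3 µM and 11.5, 40.0 and 33.5 CPM at 1.0 µM. In T-N1G cells all treated libraries were below vehicle. In mock cells the libraries at 0.3 µM were below vehicle and those at 1.0 µM overlapped with it on both sides, library 1 being the low one. Against vehicle, 1.0 µM gave a fold of 0.181 in T-N1G and 1.44 in mock cells. The distance between the lines was the widest of the 10 genes at 1.0 µM: T-N1G cells were 5.02-fold lower under vehicle, 8.02-fold at 0.3 µM and 40.0-fold at 1.0 µM, without overlap at any dose. Without mock library 3 at 0.3 µM the difference at that dose was 5.17-fold and the difference of 0.3 µM from vehicle in mock cells was -1.92 on the log2 scale, compared with -1.29 with it.

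Trp63 differed from the other genes in being higher in T-N1G cells without overlap under vehicle. With MG132 it was lower in T-N1G cells at both doses, as Krt19 and Cldn1 were. T-N1G cells had 7.65, 4.88 and 5.94 CPM under vehicle, 1.98, 1.11 and 0.525 CPM at 0.3 µM and 0.921, 0.733 and 1.25 CPM at 1.0 µM. Mock cells had 0.783, 0.324 and 1.69 CPM under vehicle, 0.397, 0.538 and 0.829 CPM at 0.3 µM and 1.35, 1.06 and 2.21 CPM at 1.0 µM. Under vehicle it was 6.55-fold higher in T-N1G than in mock cells without overlap, and the lines overlapped at both doses. At 1.0 µM the T-N1G library was nonetheless the lower one in every pair of libraries with the same number, with a fitted difference of 1.59-fold. In T-N1G cells Trp63 was 6.31-fold lower at 1.0 µM than under vehicle, and 5.1-fold lower at 0.3 µM. In mock cells both doses overlapped with vehicle. Mock vehicle library 3 was the highest of its group: without it the difference of T-N1G from mock cells under vehicle was 11-fold, the fold of 1.0 µM over vehicle in mock cells was 2.91 (1.66 with it), and the log2 difference at 0.3 µM was 0.12 (-0.66 with it).

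Ripk4, which acts downstream of p63 in keratinocytes, differed between the lines at all doses. T-N1G cells had 0.51, 0.736 and 0.829 CPM under vehicle, 0.545, 0.607 and 0.43 CPM at 0.3 µM and 0.491, 0.451 and 0.217 CPM at 1.0 µM. Mock cells had 4.84, 4.68 and 5.11 CPM under vehicle, 6.6, 8.17 and 9.22 CPM at 0.3 µM and 8.0, 7.5 and 7.1 CPM at 1.0 µM. MG132 libraries of mock cells were all above vehicle at both doses, and those of T-N1G cells all below it at 1.0 µM. At 1.0 µM the fold over vehicle was 0.556 in T-N1G and 1.54 in mock cells. T-N1G cells were 6.99-fold lower under vehicle, 15.0-fold at 0.3 µM and 19.4-fold at 1.0 µM, the T-N1G level at 1.0 µM resting on 8, 8 and 4 fragments. Trp63 (chr16:25683850-25892174), Cldn1 (chr16:26356731-26371925) and Ripk4 (chr16:97963548-97985362, mm9) share chromosome 16.

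Of the other receptor-interacting kinases, Ripk1, Ripk2 and Ripk3 were tested, none of which differed between the lines under vehicle at an adjusted p under 0.05 (edgeR's quasi-likelihood test, adjusted over all genes, as for every adjusted p here). At 1.0 µM against vehicle, Ripk3, the kinase of necroptosis, rose in T-N1G cells (log2 0.93 ± 0.0878 SE, adjusted p = 2.22e-08) and fell by 0.47 in mock cells (SE 0.091, adjusted p = 0.00016). Ripk2, an adaptor kinase of NOD receptors, rose by 0.36 in T-N1G and 0.39 in mock cells (adjusted p = 0.000823 and 0.000372). Ripk1, a kinase of cell death and NF-kB signalling, rose by 0.35 in T-N1G and 0.76 in mock cells (adjusted p = 0.00268 and 1.22e-06), and the T-N1G value was lost with library size scaling (adjusted p = 0.0757). All 3 were thus called higher at 1.0 µM in T-N1G cells, as were 37.5% of all genes tested, and 3 genes are too few to set apart from that share. Ripk4, lower there, was chosen on this contrast and had 20 fragments, so no difference from the other 3 is read.

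Sprr1a (chr3:92287875-92289803, mm9) had one of the steepest dose profiles in mock cells. T-N1G cells had 1.25, 2.48 and 4.28 CPM under vehicle, 0.446, 0.809 and 1.81 CPM at 0.3 µM and 5.96, 7.16 and 3.25 CPM at 1.0 µM. Mock cells had 2.16, 2.45 and 2.92 CPM under vehicle, 5.31, 3.18 and 6.0 CPM at 0.3 µM and 24.7, 48.4 and 35.4 CPM at 1.0 µM. In T-N1G cells both doses overlapped with vehicle, though at 0.3 µM the library was below the vehicle library of the same number in all 3 pairs (2.58-fold lower as fitted), and in mock cells neither dose overlapped. The fold of 1.0 µM over vehicle was 2.03 in T-N1G and 14.4 in mock cells. The lines overlapped under vehicle, and T-N1G cells were 4.66-fold lower at 0.3 µM (7.67-fold without T-N1G library 3 at that dose) and 6.64-fold lower at 1.0 µM.

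Compared between lines at one dose, T-N1G libraries lay below mock libraries without overlap for Krt19, Cldn1 and Ripk4 under vehicle, for 8 of the 10 genes at 0.3 µM and for 6 at 1.0 µM, while Trp63 was the sole gene higher without overlap, under vehicle. Among all genes tested, 24.6% were higher and 24.6% lower without overlap under vehicle, 33.8% and 32.6% at 0.3 µM, and 27.9% and 26.8% at 1.0 µM. These contrasts were part of the choice too, and the comparisons within a line share their vehicle libraries between doses. The median log2 difference of the 10 genes at 1.0 µM was 0.85 in T-N1G cells and 2.66 in mock cells against vehicle (0.85 and 2.67 with genes at 0 set to their bound), and that of all genes tested -0.01 in T-N1G and -0.04 in mock cells. Between lines at 1.0 µM it was -1.74 for the 10 genes and -0.01 for all.

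Across the 18 libraries the 10 genes fell into sets that followed different axes, in Pearson's r of log2 CPM (prior count of 2). Krt19 and Ripk4 reached r = 0.96, Krt19 and Cldn1 0.92, and Cldn1 and Ripk4 0.86, the genes whose levels separated the lines. Krt8 and Krt17 reached 0.89, Krt18 and Krt17 0.87, Krt8 and Krt18 0.83, and Cldn4 0.84 to 0.85 with these 3, the genes near 0 under vehicle. Krt19 had r = 0.09 with Cldn4 and 0.1 with Krt18, and Trp63 was at or below -0.02 with all others. All points share line and dose, so these values describe the 6 groups more than single libraries. The tested genes most like each by this measure included Atp2b1 (0.97) and Cables2 (0.969) for Krt19, Ak4 (0.97) and Cables2 (0.963) for Ripk4, Vps37b and Gata4 (0.981 each) for Cldn4, Csrnp1 (0.976) and Il6ra (0.975) for Krt17, Slk (0.941) and Serpinb9g (0.936) for Krt8, and Tacc1 (0.877) and Il6st (0.866) for Trp63. Closest to Krt18 were Selp (0.932) and Creb5 (0.924), to Krt14 Rassf1 (0.954) and D10Wsu102e (0.953), to Cldn1 Mospd2 (0.958) and Fam171a1 (0.954), and to Sprr1a Cited2 (0.949).

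Other epithelial genes were tested from 6 lists that leave out these 10: other keratins, tight junction genes, adherens junction and desmosome genes, epithelial transcription and splicing factors, cornified envelope genes, and basement membrane and hemidesmosome genes. Of 150 such genes 54 passed the expression filter, some, such as Cldn18, only through the treated groups in which they were high, so that calls of such genes depend on that filter. At 1.0 µM against vehicle, 26 rose and 15 fell in T-N1G cells, where 37.5% of all genes tested rose and 38.9% fell, and 29 rose and 10 fell in mock cells, where 32.4% rose and 37.4% fell. Among the 37 of the 54 with a mean of 1 CPM or more over all libraries, 16 rose and 14 fell in T-N1G and 19 rose and 9 fell in mock cells. That mean includes the treated libraries, so this split does not remove the dependence on the filter, and nothing is read from it. Without mock vehicle library 1 or mock library 1 at 1.0 µM, 6 fell in mock cells. In all, 23 genes rose in both lines (88.5% of those that rose in T-N1G and 79.3% of those that rose in mock cells), 7 fell in both (46.7% of those that fell in T-N1G and 70.0% of those that fell in mock cells), and F11r and Tfap2a fell in T-N1G and rose in mock cells. The 23 include Cldn18, Krt16, Krt25, Grhl2, Prdm1, Lor and Lama3, which passed the filter only through groups in which they were high. The overlap over all genes is not given here, so nothing is read from these shares. The median log2 difference of the 54 was 0.63 in T-N1G and 1.1 in mock cells.

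**Figure D3:**
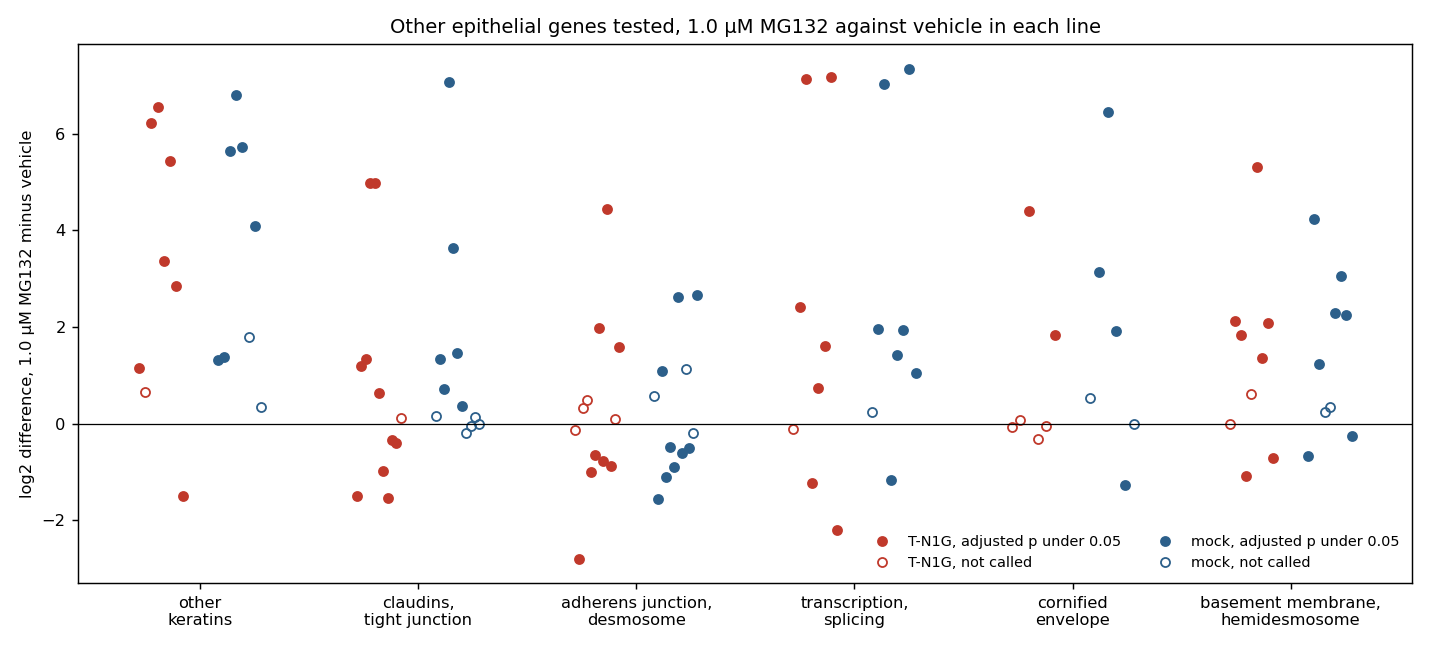
Fitted log2 difference between 1.0 µM MG132 and vehicle for each of the 54 other epithelial genes tested, by list, with T-N1G cells left of mock cells. Filled points passed an adjusted p of 0.05, open points did not, and values of genes at or near 0 under vehicle depend on the prior count. Keratins lie mostly above 0 in both lines, some having passed the filter only through treated groups in which they were high. Of 11 tight junction genes 5 rose and 5 fell in T-N1G cells and 6 rose and 0 fell in mock cells (37.5% and 38.9% of all genes tested in T-N1G, 32.4% and 37.4% in mock cells).

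Of 47 other keratins 8 passed the filter, of which 6 rose and 1 fell in T-N1G and 6 rose and 0 fell in mock cells at 1.0 µM. Of all genes tested, 37.5% rose and 38.9% fell in T-N1G and 32.4% rose and 37.4% fell in mock cells. Some keratins, such as Krt16, Krt25 and Krt76, passed only through treated groups in which they were high, so nothing is read from the count. Krt16, a type I keratin of stressed epidermis that lies between Krt14 and Krt17, had 6.23 ± 1.16 CPM in T-N1G and 12.6 ± 2.56 CPM in mock cells at 1.0 µM, against 0.0768 ± 0.0957 CPM in T-N1G and 0.245 ± 0.116 CPM in mock cells under vehicle. Its log2 difference from vehicle was 6.23 in T-N1G and 5.65 in mock cells. Krt6a, the type II partner of Krt16 and Krt17, rose by 3.36 in T-N1G and 5.73 in mock cells on the log2 scale (adjusted p = 2.01e-06 and 4.63e-08). It was scarce in mock cells under vehicle, where Krt80 made up 98.2% and Krt8 0.556% of type II FPKM. Its calls may therefore depend on the filter as well. Krt25, a hair follicle keratin, was at 30 fragments in T-N1G and 136 in mock cells at 1.0 µM, against 0 in T-N1G and 1 in mock cells under vehicle. Krt80 fell in T-N1G cells (16.0 ± 4.69 CPM at 1.0 µM, against 45.1 ± 3.83 CPM under vehicle, adjusted p = 4.65e-06) and had an adjusted p of 0.128 in mock cells (57.9 ± 13.1 CPM against 46.0 ± 2.8 CPM). Krt76, a keratin of the palate, had 118 fragments at 1.0 µM and 3 under vehicle in T-N1G cells. No test is given for Krt16, Krt25 and Krt76, which passed the filter only through the groups in which they were high.

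Of 11 tight junction genes tested, Cldn18 had 10 fragments in T-N1G and 48 in mock cells at 1.0 µM and 0 in both under vehicle, at least 4.13-fold higher in T-N1G and at least 18.1-fold higher in mock cells; no test is given, since it passed the filter only through the groups in which it was high. Cldn12 rose 2.29-fold in T-N1G and 2.53-fold in mock cells (adjusted p = 2.98e-09 and 1.54e-09). The coxsackievirus and adenovirus receptor Cxadr, an adhesion protein of tight junctions, rose 1.56-fold in T-N1G and 2.78-fold in mock cells (adjusted p = 0.000798 and 5.17e-08). Occludin (Ocln), cingulin (Cgn) and the junctional adhesion molecule F11r fell in T-N1G cells by 1.55, 1.5 and 0.98 on the log2 scale (adjusted p = 0.00343, 0.000233 and 2.27e-06). In mock cells F11r rose by 0.37 (adjusted p = 0.0177, but 0.0764 without mock library 1 at 1.0 µM and 0.0613 with library size scaling), and Ocln and Cgn had adjusted p of 0.616 and 0.643.

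Of 12 adherens junction and desmosome genes, 3 rose and 5 fell in T-N1G cells and 3 rose and 6 fell in mock cells at 1.0 µM, shares not far from those of all genes tested (37.5% and 38.9% of all genes tested in T-N1G, 32.4% and 37.4% in mock cells). P-cadherin (Cdh3) fell to 27.9 ± 8.4 CPM in T-N1G cells, against 195 ± 12.7 CPM under vehicle, and to 28.7 ± 4.79 CPM in mock cells, against 85.4 ± 4.93 CPM (adjusted p = 3.23e-11 and 7.23e-08). The desmosomal plakophilin Pkp1 rose 3.91-fold in T-N1G and 6.15-fold in mock cells (adjusted p = 3.98e-08 and 2.43e-09). Pkp3 had 60 fragments at 1.0 µM and 3 under vehicle in T-N1G cells, and 14 and 7 fragments in mock cells. No test is given for Pkp3, since it passed the filter only through the groups in which it was high.

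Of 8 transcription and splicing factors tested, 5 rose and 2 fell in T-N1G cells and 6 rose and 1 fell in mock cells at 1.0 µM (37.5% and 38.9% of all genes tested in T-N1G, 32.4% and 37.4% in mock cells). Some, such as Grhl2 and Prdm1, passed the filter only through treated groups in which they were high. Grhl2, a grainyhead factor that activates epithelial junction genes, had 388 fragments in T-N1G and 278 in mock cells at 1.0 µM, against 3 in T-N1G and 2 in mock cells under vehicle (ratios 160.0, counting interval 54.4 to 781, and 158, 43.2 to 1308). Prdm1, a repressor active in terminal differentiation, had 279 fragments in T-N1G and 341 in mock cells at 1.0 µM, against 2 in each under vehicle. Klf5 rose 3.02-fold in T-N1G and 3.8-fold in mock cells (adjusted p = 1.67e-09 and 4.32e-10). Tfap2a, which acts with p63 in epidermis, fell by 2.2 on the log2 scale in T-N1G and rose by 1.05 in mock cells (adjusted p = 3.03e-06 and 0.00293).

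Among 6 cornified envelope genes tested, loricrin (Lor) had 40 fragments in T-N1G (4 to 30 per library) and 182 in mock cells (27 to 86) at 1.0 µM, against 2 in each under vehicle. No test is given for Lor, since it passed the filter only through groups in which it was high. Involucrin (Ivl), which lies beyond Sprr4 on one side of Sprr1a, rose in mock cells, to 1.8 ± 0.902 CPM against 0.2 ± 0.0717 CPM (adjusted p = 6.5e-05), and had 0.532 ± 0.0564 CPM against 0.509 ± 0.448 CPM in T-N1G cells (adjusted p = 0.916). Of 9 basement membrane and hemidesmosome genes, 5 rose and 2 fell in each line at 1.0 µM (37.5% and 38.9% of all genes tested in T-N1G, 32.4% and 37.4% in mock cells). The laminin chain Lama3 reached 11.2 ± 4.33 CPM in T-N1G and 0.765 ± 0.383 CPM in mock cells at 1.0 µM, 39.8-fold and 4.9-fold above vehicle. It too passed the filter only through groups in which it was high, and no test is given. Lamb3, another laminin chain, rose 2.56-fold in T-N1G and 8.28-fold in mock cells (adjusted p = 0.0246 and 0.000102). The T-N1G call of Lamb3 was lost without T-N1G library 1 at 1.0 µM (adjusted p = 0.209), T-N1G vehicle library 2 (0.0718) or T-N1G vehicle library 3 (0.0803).

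At 0.3 µM, 14 of the 54 rose and 18 fell in T-N1G cells, where 29.1% and 30.3% of all genes tested did, and 14 rose and 7 fell in mock cells, where 25.0% and 28.1% did. Of these, 6 rose in both lines (42.9% of the 14 in each line), Grhl1, Grhl2, Klf5 and Krt16 among them. The 4 that fell in both (22.2% of those in T-N1G and 57.1% of those in mock cells) included Cdh3. The overlap over all genes is not given at this dose either, and nothing is read from these shares.

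Between lines under vehicle, 7 of the 54 were higher and 7 lower in T-N1G cells, where 8.43% and 7.72% of all genes tested were. Without T-N1G vehicle library 3, 4 were higher, and without mock vehicle library 2, 4 were lower. The desmosomal linkers periplakin (Ppl) and desmoplakin (Dsp) were lower in T-N1G cells, Ppl at 1.71 ± 0.195 CPM in T-N1G and 11.5 ± 0.514 CPM in mock cells (adjusted p = 1.71e-07) and Dsp at 4.12 ± 0.842 CPM in T-N1G and 12.7 ± 0.678 CPM in mock cells (adjusted p = 1.4e-06). Cdh3 was 2.29-fold and Tfap2a 2.72-fold higher in T-N1G cells (adjusted p = 2.16e-05 and 0.00135). At 1.0 µM, 10 of the 54 were higher and 25 lower in T-N1G than in mock cells (30.7% and 31.3% of all genes tested), and at 0.3 µM 8 were higher and 18 lower (25.0% and 23.5%). Of the 11 tight junction genes tested, 9 were lower in T-N1G cells at 1.0 µM, Ocln by 1.92, Cxadr by 1.89 and F11r by 0.75 on the log2 scale (adjusted p = 0.000711, 3.39e-09 and 9.17e-05).

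The response to 1.0 µM differed between the lines, as an interaction, for 22.9% of all genes tested towards T-N1G and 22.1% towards mock cells. Of the 54, it was more positive in T-N1G cells for 6 and more negative for 16, Tfap2a (-3.25 ± 0.415 SE, adjusted p = 5.65e-06), Krt80 (-1.82 ± 0.279, adjusted p = 6.04e-05) and F11r (-1.35 ± 0.185, adjusted p = 1.3e-05) among the 16. Of the 10 described genes, 9 had a lower fitted value in T-N1G than in mock cells, from -0.78 for Krt18 to -3.39 for Trp63, and Krt17, at 0 in T-N1G vehicle libraries, had 1.71, a value that depends on the prior count. These values were part of the choice and were not tested. For Krt18 the value became 2.23 without T-N1G vehicle library 2 and -0.17 without mock library 3 at 1.0 µM, and for Trp63 -4.18 without mock vehicle library 3.

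Genes that act on or with these epithelial genes were tested as further lists. Of 9 AP-1 genes, whose products bind TGANTCA as dimers, 6 rose and 1 fell in T-N1G and 9 rose in mock cells at 1.0 µM. The shares of all genes tested were 37.5% and 38.9% in T-N1G and 32.4% and 37.4% in mock cells. Atf3 rose 60.8-fold in T-N1G and 64.8-fold in mock cells (adjusted p = 1e-16 and 1.62e-16), and Fosl1 rose 30.2-fold in T-N1G and 6.57-fold in mock cells (adjusted p = 1.88e-12 and 2.49e-09). Fosl1 was thus 2.9-fold higher in T-N1G than in mock cells when given 1.0 µM (adjusted p = 6.23e-07). In that comparison 2 of the 9 AP-1 genes were called higher and 3 lower. Jund (log2 -0.69), Atf3 (-0.51) and Fosl2 (-0.49) went the other way from Fosl1. The call of Fosl2 was lost with only the groups compared (adjusted p = 0.0533). The part of AP-1 genes in the levels of Sprr1a and Cldn4 was not tested. Of 6 repressors of epithelial genes, 2 rose and 4 fell in T-N1G and 3 rose and 2 fell in mock cells (37.5% and 38.9% of all genes tested in T-N1G, 32.4% and 37.4% in mock cells), too few genes to set apart from those shares. Zeb2 rose 2.36-fold in T-N1G and 3.83-fold in mock cells (adjusted p = 6.77e-08 and 5.66e-10). Snai2 (Slug) fell by 0.7 in T-N1G and rose by 0.69 in mock cells on the log2 scale (adjusted p = 0.000154 and 0.000197). Twist2 fell by 0.84 in T-N1G and rose by 0.44 in mock cells (adjusted p = 1.55e-06 and 0.00119).

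Of 5 partners of keratins in protein aggregates, such as the Mallory-Denk bodies of liver, 4 rose in each line at 1.0 µM (37.5% of all genes tested in T-N1G and 32.4% in mock cells). The small heat shock protein gene Hspb1 rose 123-fold in T-N1G and 121-fold in mock cells (adjusted p = 2.34e-13 and 6.57e-13). Sqstm1, which encodes the autophagy receptor p62, rose 12.9-fold in T-N1G and 4.2-fold in mock cells (adjusted p = 1.14e-15 and 1.5e-12). Of 10 fibroblast markers, 1 rose and 9 fell in T-N1G and 2 rose and 7 fell in mock cells at 1.0 µM (37.5% and 38.9% of all genes tested in T-N1G, 32.4% and 37.4% in mock cells). Vim fell to 716 ± 338 CPM in T-N1G cells, against 2146 ± 10.5 CPM under vehicle, and to 1780.0 ± 421 CPM in mock cells, against 2914 ± 236 CPM (adjusted p = 2.91e-05 and 0.0174). The mock call of Vim was lost without mock library 1 at 1.0 µM (adjusted p = 0.127), mock vehicle library 1 (0.0637) or 2 (0.079) and with no filter (0.0602). S100a4 fell by 4.41 in T-N1G and 3.92 in mock cells on the log2 scale (adjusted p = 4.35e-08 and 1.9e-07). The part of these changes in the levels of the 10 genes was not tested.

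Around the 10 loci, the 2 nearest annotated genes on either side gave 27 other genes, of which 11 were tested. At 1.0 µM, 4 rose and 4 fell in T-N1G and 7 rose and 3 fell in mock cells (37.5% and 38.9% of all genes tested in T-N1G, 32.4% and 37.4% in mock cells), the T-N1G counts being near those shares. Those that rose in mock cells included Krt79, Krt16, Krt13 and Ivl, which are also in the epithelial lists above. Krt16 passed the filter only through treated groups. The mock counts are thus not independent of those lists, and nothing is read from them. P3h2, a collagen prolyl hydroxylase gene between Trp63 and Cldn1, fell by 1.18 in T-N1G and rose by 0.52 in mock cells (adjusted p = 9.29e-07 and 0.00306), with an interaction of -1.7 (adjusted p = 2.81e-06). Wbscr27, next to Cldn4, fell by 0.94 in mock cells (adjusted p = 0.000962) and had a log2 difference of -0.04 in T-N1G cells (adjusted p = 0.878).

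Chromosome 11, which carries Krt19, Krt14 and Krt17, stood apart between the lines. Under vehicle, 274 of its 1109 genes tested (24.7%) were lower in T-N1G cells, against 7.72% over all chromosomes, and its median log2 difference was -0.218, against 0.002 over all genes. The median was -0.247 at 0.3 µM and -0.222 at 1.0 µM. For chromosome 16, with Trp63, Cldn1 and Ripk4, 4.04% were lower and the median was 0.016. The log2 difference of Krt19 between the lines under vehicle, -1.26, was larger than the chromosome's median, and that of Krt14, -0.24, was near it. The part of the chromosome's shift in the level of these keratins was not tested.

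**Figure D4:**
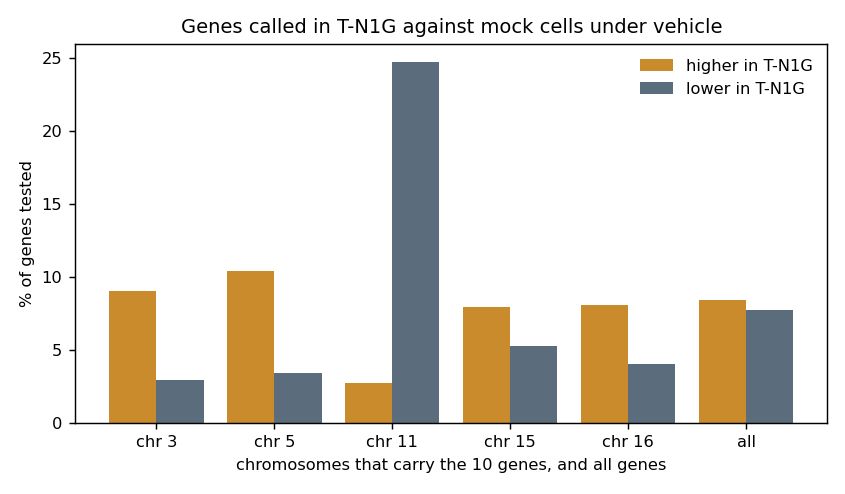
Share of genes tested, in percent, that were called higher or lower in T-N1G against mock cells under vehicle, for the 5 chromosomes that carry the 10 genes and for all genes. Chromosome 11 has 24.7% lower and 2.71% higher, and all genes together 7.72% lower and 8.43% higher.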

How the data were processed

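The 10 genes, the gene lists, the rule for naming genes and the alternatives were chosen with earlier results of these data known. The submitters' processing notes name mm9, TopHat2 2.0.8b, Cuffdiff 2.1.1 and bcl2fastq 2.16.0.10, while annotation, filters, strand setting and treatment of shared reads are not stated. Per the file headers, the authors deposited unscaled estimated counts for each library and FPKM scaled by Cuffdiff. In each library, 98.16% to 98.51% of the expected counts deposited were whole within 1e-06, and all were rounded. Cuffdiff's condition names (N1, L-MG, H-MG) were read as T-N1G (T-NG1 in the genotype label), 0.3 and 1.0 µM, and its library numbers as those of the titles, and the files state neither link. The 2 genes left unprocessed in some libraries were dropped. Results of some genes are not reported here.

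All 18 libraries entered 1 edgeR 4.0.16 quasi-likelihood fit (R 4.3.3) of 6 group means with TMM scaling and the default filter by group, in which 13258 genes were tested and adjusted together (Benjamini-Hochberg, threshold 0.05). It was tested on simulated data. Folds are fitted values; against a group at 0 they are bounds from 3 fragments over the group, and against 1 to 3 fragments ratios with a 95% exact interval, both for counting error only. All 10 genes passed the filter, Krt18 with 10 fragments or more in 3 libraries, Krt17 in 5 and Cldn4 in 11. Named were the 10 genes, up to 4 called genes per list and comparison by size of change, all of the short lists, the genes closest in correlation and the neighbours; the single epithelial markers, and values of listed genes in comparisons where they were not among the 4, were added after their values were seen. No pair of libraries in a group was counted as a duplicate (chi-square over degrees of freedom of 2.92 or more). Same-numbered libraries deviated together (every correlation over 0.1) in 8 of 15 pairs of groups, so the block was an alternative. The others were RLE and library size scaling, no filter, DESeq2 1.42.0, only the groups compared and each library left out. Promoters were matched to RefSeq (GRCm38.p6), whose coordinates are not those of mm9.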

Additional observations from a re-analysis of the deposited data

Results flagged for a closer look

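The response to 1.0 µM MG132 differed between the lines, by the interaction in edgeR's quasi-likelihood test, for 22 of the 54 other epithelial genes tested, more positive in T-N1G cells for 6 and more negative for 16. Of all genes tested, 22.9% were more positive and 22.1% more negative, so a differing response is not particular to these genes. Among the keratins, the log2 interaction was -1.82 for Krt80 and -2.37 for Krt6a, Krt6a with an adjusted p of 0.03 that became 0.058 with only the groups compared, 0.0557 without mock vehicle library 1, 0.0753 without mock vehicle library 2 and 0.0958 without T-N1G vehicle library 1. Krt6a was scarce in mock cells under vehicle, so its call may also depend on the expression filter. Among tight junction genes it was -1.65 for Cgn, -1.35 for F11r, -0.83 for Cxadr and -1.36 for Ocln, whose adjusted p of 0.0498 was above 0.05 in 17 of the alternatives, up to 0.115. Among adherens junction and desmosome genes it was 3.32 for Pkp3, 1.59 for Evpl, -1.23 for Cdh3 and -0.75 for Dsp. The adjusted p of Pkp3, 0.0204, became 0.0543 without T-N1G vehicle library 2, 0.0541 without T-N1G vehicle library 3 and 0.072 without mock vehicle library 3. Pkp3 passed the expression filter only through the groups in which it was high, so its call depends on that filter.

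Among transcription factors the interaction was -3.25 for Tfap2a and -0.68 for Klf4. Among cornified envelope genes it was -3.07 for Ivl, -2.22 for Sbsn, 1.84 for Sfn and 1.25 for Scel, whose adjusted p of 0.0353 became 0.051 with only the groups compared and 0.066 to 0.109 without each of 8 libraries. Among basement membrane and hemidesmosome genes it was 3.02 for Lama3 (2.58 with an adjusted p of 0.0518 without mock vehicle library 1), 0.66 for Cd151, -1.31 for Itga6 and -0.46 for Plec. Lama3 passed the expression filter only through the groups in which it was high, so its call depends on that filter.

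Every treated library lay on opposite sides of vehicle in the lines for Krt19 at 0.3 µM (log2 -1.01 in T-N1G and 0.23 in mock cells) and at 1.0 µM (-0.89 and 0.82), and for Ripk4 at 1.0 µM (-0.85 and 0.63). These differences were not tested, since both genes were chosen on the same contrasts.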

How the results depend on the processing

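The counts of other epithelial genes called stayed within 1.5 times their value with RLE scaling, library size scaling, DESeq2 and the replicate block. With the replicate block, which the shared numbers of the libraries allow, 27 rose and 15 fell in T-N1G and 30 rose and 10 fell in mock cells at 1.0 µM, the interaction of Ocln had an adjusted p of 0.0578, and no other call of a gene named here was lost. With no filter on low counts, 141 of these genes were tested, against 54 with it. Of the 141, 47 rose in T-N1G and 48 in mock cells at 1.0 µM, and at that dose 16 were higher in T-N1G compared with mock cells. These are larger counts out of many more genes, and the shares of all genes called without the filter are not given here. With only the groups compared, 12 of 39 tested fell in mock cells at 0.3 µM and 11 of 37 tested were lower in T-N1G cells under vehicle. More genes are tested without the filter; the cause of the other shifts was not tested. With 1 library left out, risen and fallen genes numbered 25 to 29 and 13 to 15 in T-N1G and 29 to 33 and 6 to 11 in mock cells at 1.0 µM, and 11 to 15 and 12 to 19 in T-N1G and 12 to 18 and 5 to 9 in mock cells at 0.3 µM. Genes higher and lower in T-N1G cells numbered 4 to 10 and 4 to 8 under vehicle, 6 to 8 and 14 to 20 at 0.3 µM, and 9 to 13 and 24 to 29 at 1.0 µM, and the interaction was more positive for 4 to 8 and more negative for 15 to 18. Over 782 gene results recomputed 18686 times, 519 values lost and 330 gained a call and 0 changed sign when called. Of the 1905 recomputed differences of the 10 described genes, 24 moved by more than the replicate spread. Depth limits Krt18, Krt17 and Cldn4 under vehicle, where groups hold 0 to 4 fragments and folds are bounds, wide intervals or, for Krt17 in mock cells, a fitted value without an interval.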
